A study of Mus musculus with 63 samples.

Results

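The 10 genes described here mark the deep-layer neurons of the cerebral cortex, and they were followed through sorted cells of the embryonic mouse cortex. They are Fezf2, Etv1, Tbr1, Sox5, Foxp2, Tle4, Ldb2, Zfpm2, Crym and Nfe2l3. They were chosen by name, with earlier results of these data known. Each matched 1 row of a table of 23078 genes, and all 10 were among the 15231 genes that passed the filter on low values. Every library came from Ski knock-out embryos on the C57Bl/6 background, so no level below is a comparison with wild type. Newborn neurons (NBN) were sorted from the dorsal cortex of Tbr2::GFP embryos on E15.5, E16.5, E17.5 and E18.5 (13 libraries). Basal progenitors (BP) were sorted from Tbr2::GFP embryos on each day between E12.5 and E18.5 (24 libraries). Neural stem cells (NSC) were sorted from Hes5::GFP embryos on each day between E11.5 and E18.5 (26 libraries). Hes5 is a Notch target of dividing stem cells, and Tbr2 (Eomes) is switched on in basal progenitors. The sources used here do not say how BP and NBN were separated within the Tbr2::GFP sort.

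Excitatory neurons of the cortex are born in order, deep layers first and upper layers later, and neurons of layers V and VI send axons out of the cortex to the thalamus, brainstem and spinal cord. A small network of transcription factors sorts these fates: FEZF2 favours layer V neurons that project below the thalamus, TBR1 favours layer VI neurons that project to it, and SOX5 controls when each fate emerges. Ski encodes a nuclear co-repressor that acts on TGF-beta signalling.

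The 63 libraries form 19 groups of cell type and day, with 2 (BP E12.5) to 6 (BP E14.5) libraries each. Values are TPM, a share of all transcripts in a library that is scaled for transcript length, so levels can be set side by side between genes. Read counts are not used here, so the depth behind a value is unknown and only the spread among libraries speaks for its precision. The labels do not say whether replicates come from different embryos, and p-values then measure only the spread between these samples. Ski RNA lay between 17.2 and 53.1 TPM in the 63 libraries, but no source used here gives the deleted stretch, and a gene-level TPM then checks nothing. The labels call all libraries female, but the sum of 4 Y-linked genes reached 10 TPM in 39 of 63. Hes5 lay between 15.51 and 215 TPM in NSC libraries and at or below 6.96 TPM in BP and NBN libraries. Eomes group means were 9.49 to 71.5 TPM in NBN, 361 to 530 TPM in BP and 144 to 425 TPM in NSC, so the NSC sort holds RNA of this progenitor marker too. In bulk samples, fewer cells of a type and less RNA per cell cannot be told apart.

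The 10 genes peaked in 3 of the groups. Fezf2, Sox5, Tle4, Ldb2, Zfpm2 and Nfe2l3 were each highest in NBN of E15.5, and in each of these 6 the range of that group did not overlap the range of the next group in the order of means. Tbr1, Foxp2 and Etv1 were highest in BP of E12.5, and Crym was highest in NBN of E18.5. Away from the peaks the order was loose: of 18 pairs of neighbours in the order, 14 (Nfe2l3) to 17 (Tbr1, Sox5, Tle4, Foxp2, Zfpm2 and Crym) had overlapping ranges. The most abundant of the 10 was Tbr1, with 662 ± 17.1 TPM in BP of E12.5 (SD, n = 2), and its lowest group was NSC of E11.5 with 122 ± 70.5 TPM (SD, n = 3). The ratio of the highest to the lowest group mean was smallest for Tbr1 (5.44), followed by Tle4 (6.71) and Foxp2 (6.99), and reached 29.1 for Etv1 and 40.2 for Nfe2l3. Crym was listed at 0 in 1 NSC library of E11.5 and had at most 0.151 TPM in the other two.

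**Figure D1:**
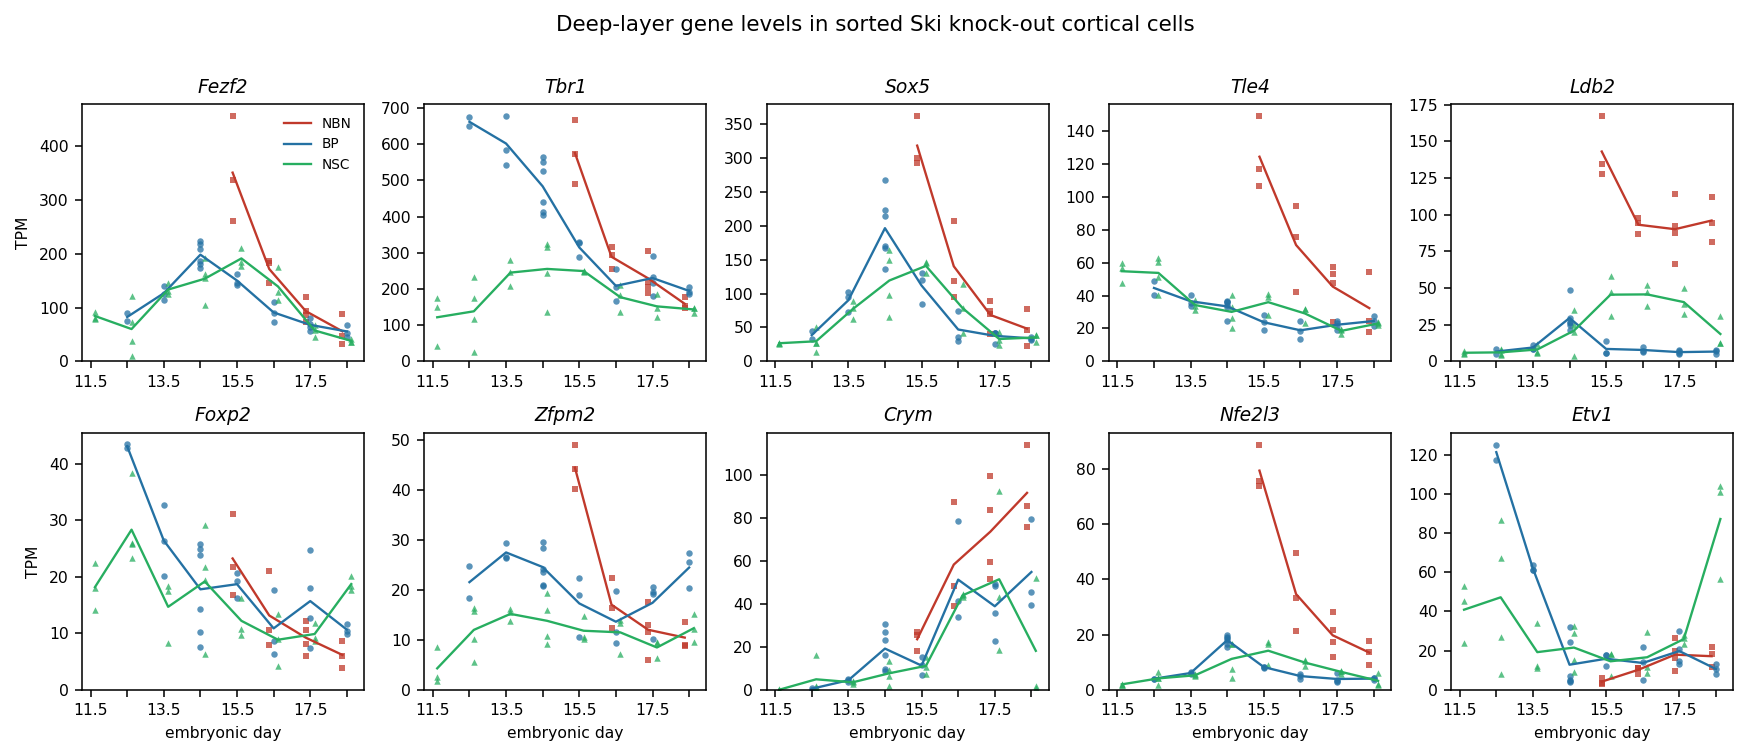
TPM of each gene (linear vertical axis, 1 panel a gene) by embryonic day. Each point is 1 library of NBN, BP or NSC, lines join group means, and cell types are offset slightly on the day axis so that points do not cover each other. In 6 panels the NBN of E15.5 stand above every other group, with means of 351 TPM for Fezf2 and 44.4 TPM for Zfpm2, whereas Crym is highest on the last day.

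The first question was how newborn neurons differed from the progenitors sorted beside them. Averaged over the 4 shared days, 4 of the 10 genes were higher in NBN than in BP (Ldb2, Nfe2l3, Tle4 and Sox5) and none was called lower, beside 5.75% of all genes called higher and 5.09% called lower. To be called, a gene needs an adjusted p under 0.05 (limma, Benjamini-Hochberg over all 15231 genes) and a difference of 1 or more, in either direction, on the log2(TPM + 1) scale, which understates changes of low genes. Ldb2, an adaptor that joins LIM-domain transcription factors into complexes, had a lowest value of 66.2, a median of 94.5 and a highest value of 167 TPM in the 13 NBN libraries, against 4.87, 6.91 and 14.0 TPM in the 13 BP libraries of those days. The lowest NBN library stood above the highest BP library. The log2 change was 3.69 ± 0.19 (SE, adjusted p = 3.95e-22), a 12.9-fold excess on that scale, with NBN higher on 4 of 4 days.

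Nfe2l3, a basic leucine zipper factor of the cap'n'collar family, showed the second separation. Its lowest, median and highest values were 9.11, 21.8 and 88.6 TPM in NBN libraries, against 2.96, 4.41 and 8.43 TPM in BP libraries. The ranges again did not overlap, and the log2 change was 2.29 ± 0.16 (adjusted p = 4.78e-17). Tle4, a Groucho co-repressor found in layer VI neurons, had 17.96, 54.5 and 150 TPM in NBN and 13.8, 23.6 and 28.0 TPM in BP (1.33 ± 0.13, adjusted p = 1.73e-12). Sox5, an SRY-box factor of early corticofugal neurons, had 22.3, 89.0 and 361 TPM in NBN and 26.2, 41.1 and 130 TPM in BP (1.06 ± 0.18, adjusted p = 1.25e-06). For Tle4 and Sox5 the ranges overlapped, although NBN had the higher mean on 4 of 4 days for both. The Sox5 call sits at the threshold: without NBN E16.5 replicate 1 the change was 0.98, and without NBN E18.5 replicate 2 it was 0.96, under the size needed.

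The other 6 genes were not called between NBN and BP. Fezf2, the zinc finger factor of layer V projection neurons, differed by 0.61 ± 0.18 (adjusted p = 0.00373). Crym, a thyroid-hormone-binding protein also called mu-crystallin, differed by 0.73 ± 0.34 (adjusted p = 0.0597). The log2 changes of Tbr1, Zfpm2, Foxp2 and Etv1 were 0.26 ± 0.19, -0.0029 ± 0.17, -0.22 ± 0.20 and -0.37 ± 0.29. For Zfpm2 (FOG2, a zinc finger cofactor of GATA factors), Tbr1 and Foxp2 the average joins opposite days, with NBN higher on 2 of 4. The Zfpm2 mean was 44.4 TPM in NBN and 17.3 TPM in BP at E15.5, and 10.4 TPM in NBN and 24.4 TPM in BP at E18.5. Tbr1 averaged 576 TPM in NBN and 315 TPM in BP at E15.5, and 159 and 195 TPM at E18.5. Foxp2 averaged 23.2 TPM in NBN and 18.7 TPM in BP at E15.5, and 6.16 and 10.6 TPM at E18.5.

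Among 19 other deep-layer genes tested, 11 were called higher and 3 lower in NBN than in BP, with a median log2 change of 1.24 against -0.06 over all genes and 0.67 over the 10. The smallest adjusted p-values belonged to Ntsr1, a neurotensin receptor of layer VI (4.35 ± 0.19), Hs3st4, a heparan sulfate sulfotransferase (3.41 ± 0.19), and Cdh13, a cadherin (2.83 ± 0.21). Those called lower were Nxph4 (-2.06 ± 0.18), Otx1 (-1.13 ± 0.12) and Pcp4 (-1.65 ± 0.23). Of 17 upper-layer genes, 5 were higher and 2 lower, with a median of 0.30. Other cell markers moved with the same contrast: 6 of 12 general neuron markers and 9 of 11 microglia markers were called higher in NBN, and 11 of 11 basal progenitor markers and 11 of 11 cell division markers were called lower. The neuron markers summed to between 7992 and 10489 TPM in NBN libraries and between 5035 and 7778 TPM in BP libraries of all days. Their part in the differences was not tested.

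**Figure D2:**
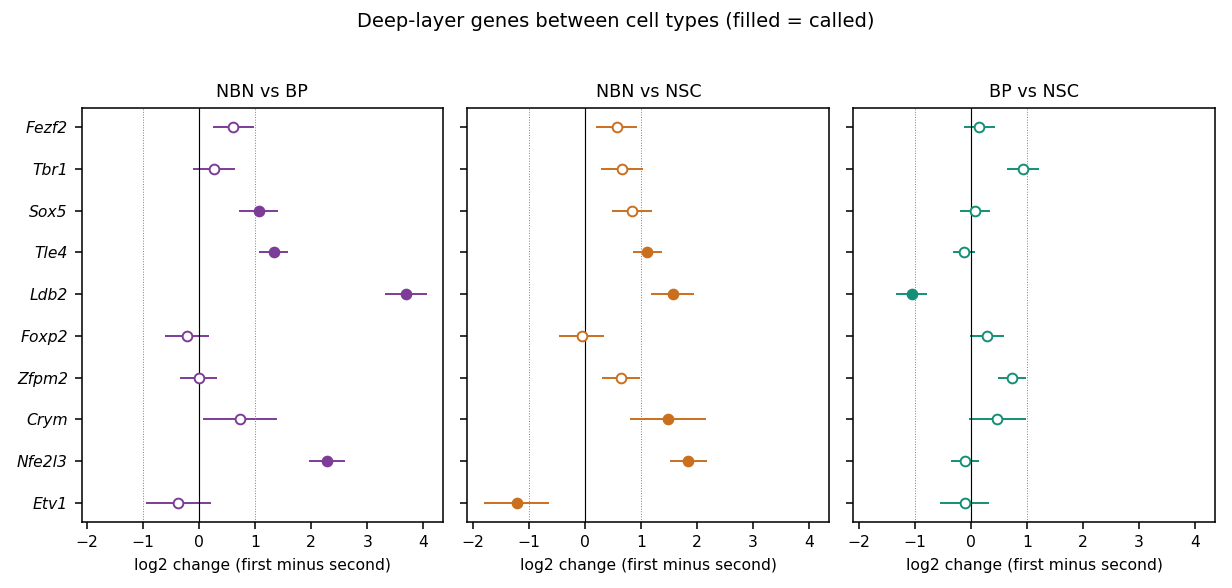
Log2 change of each gene (first cell type minus second, horizontal axis) averaged over the 4 days NBN share with BP and with NSC and over the 7 days BP share with NSC. Bars are 95% intervals, filled circles are called, and dotted lines mark a log2 change of 1 in size. Ldb2 lies at 3.69 for NBN against BP and at -1.06 for BP against NSC.

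Against neural stem cells, 4 of the 10 genes were called higher in NBN and 1 was called lower, beside 2.55% of all genes called higher and 6.11% called lower. Nfe2l3 had 9.11, 21.8 and 88.6 TPM in NBN (lowest, median and highest of 13) and 1.62, 7.68 and 17.1 TPM in NSC (12 libraries of the same 4 days). The ranges overlapped, and the log2 change was 1.85 ± 0.17 (adjusted p = 1.81e-13). Ldb2 had 12.3, 38.3 and 58.2 TPM in those NSC libraries, all below its lowest NBN value of 66.2 TPM (1.56 ± 0.19, adjusted p = 1.54e-09). Tle4 was higher in NBN by 1.11 ± 0.13 (adjusted p = 7.35e-10), with 16.8, 23.8 and 40.7 TPM in NSC.

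Crym was higher in NBN by 1.48 ± 0.34 (adjusted p = 0.000273), with 18.2, 59.4 and 114 TPM in NBN against 1.01, 30.9 and 92.6 TPM in NSC. That call depends on the last day, since without E18.5 the change was 0.70. Etv1, an ETS-family factor of layer V neurons also called ER81, was lower in NBN (-1.22 ± 0.30, adjusted p = 0.000482), with 2.94, 11.4 and 26.3 TPM in NBN against 7.14, 24.9 and 104 TPM in NSC. Its call was lost without E18.5 (-0.87), with a pseudocount of 5 (-0.99) and with the interneuron marker level as a covariate (-0.76). The other 5 genes were not called. Sox5 differed by 0.83 ± 0.18 (adjusted p = 0.000117) and Tbr1 by 0.66 ± 0.19 (adjusted p = 0.00347). Fezf2 differed by 0.57 ± 0.19 (adjusted p = 0.00894) and Zfpm2 by 0.64 ± 0.17 (adjusted p = 0.00138). All of these were under the size needed, with NBN higher on 4 of 4 days, or 3 of 4 for Zfpm2. Foxp2 differed by -0.058 ± 0.21 (adjusted p = 0.839). Interneuron markers summed to between 52.5 and 339 TPM in NBN libraries and between 153 and 1238 TPM in NSC libraries of all days, and 11 of 13 were called lower in NBN. The interneuron level thus differed between the cell types, so the fit with it as a covariate cannot give its part. Radial glia and cell division markers were lower in NBN too (11 of 11 each), as were 10 of 11 basal progenitor markers. General neuron markers were higher (6 of 12, median 0.93, against 0.75 over the 10 genes), as were 6 of 10 Cajal-Retzius markers. The part of these lists in the differences was not tested. Among the other deep-layer genes 7 were higher and 2 lower (median 0.81, against -0.06 over all genes), led by Hs3st4 (2.30 ± 0.19), Nxph3 (1.97 ± 0.19) and Nr4a2 (1.59 ± 0.17). Among the upper-layer genes 3 were higher and 2 lower (median 0.07).

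Few of the genes separated BP from NSC. Over 7 shared days none of the 10 was called higher in BP and 1, Ldb2, was lower, beside 0.466% of all genes called higher and 2.56% called lower. Ldb2 had 4.87, 7.88 and 48.9 TPM in 24 BP libraries and 3.82, 25.0 and 58.2 TPM in 23 NSC libraries (-1.06 ± 0.14, adjusted p = 2.72e-08). The ranges overlapped, BP was lower on 4 of 7 days, and without NSC E18.5 replicate 1 the change was -0.995, just under the size needed. At E14.5 the BP mean was 29.6 TPM and the NSC mean 20.9 TPM, whereas at E15.5 BP averaged 8.46 TPM and NSC 45.5 TPM. Interneuron markers moved with this contrast, 12 of 13 being called lower in BP, and with their level as a covariate the Ldb2 change was -0.62 and not called. That level itself differed between the cell types, so this fit cannot give its part. Radial glia markers were lower in BP (10 of 11, median -2.19), with sums of 514 to 918 TPM in BP libraries and 1222 to 7097 TPM in NSC libraries of all days. Cajal-Retzius markers, which label early cortical neurons that also express Tbr1, were higher in BP (7 of 10, median 1.17), with sums of 133 to 907 TPM in BP and 32.4 to 706 TPM in NSC. The part of these lists in the differences was not tested.

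Tbr1, a T-box factor of layer VI, and Zfpm2 were higher in BP on 7 of 7 days, by less than the size needed for a call with all libraries and no covariate. Tbr1 had 166, 328 and 677 TPM in BP and 25.8, 186 and 324 TPM in NSC (0.93 ± 0.15, adjusted p = 5.79e-07). Zfpm2 had 9.45, 20.9 and 29.6 TPM in BP and 5.64, 12.2 and 19.3 TPM in NSC (0.73 ± 0.13, adjusted p = 5.3e-06). With the interneuron covariate Tbr1 (1.01), Zfpm2 (1.09) and Foxp2 (1.41, against 0.29 with no covariate) were called higher in BP, and Tbr1 was also called without E18.5 (1.01). The covariate itself differed between BP and NSC, so the fit with it cannot give its part. The log2 changes of Fezf2, Sox5, Tle4, Nfe2l3 and Etv1 lay between -0.12 and 0.15. Of the other deep-layer genes 1 was higher, Nxph4 (1.16 ± 0.13), and 3 were lower, Ctgf (-2.24 ± 0.13), Dkk3 (-1.22 ± 0.09) and Ntsr1 (-1.23 ± 0.15). Of the upper-layer genes 1 was lower and none higher.

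In NBN 7 of the 10 genes were called lower at E18.5 than at E15.5, and 1 was called higher. Of all genes, 1.39% were called lower and 3.49% called higher. The summed level of the 10 was 489, 683 and 419 TPM in the NBN libraries of E18.5, against 1536, 1921 and 1603 TPM in those of E15.5. The neuron marker sum was 9358 to 9796 TPM at E18.5 and 8789 to 10398 TPM at E15.5, so the days overlapped in that sum and not in the sum of the 10.

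Sox5 had 45.5, 76.8 and 22.3 TPM in NBN of E18.5, against 300, 361 and 292 TPM in NBN of E15.5 (-2.86 ± 0.37, adjusted p = 9.41e-08). Fezf2 had 47.4, 87.3 and 32.6 TPM at E18.5, against 337, 455 and 260 TPM at E15.5 (-2.71 ± 0.38, adjusted p = 5.3e-07). Nfe2l3 had 13.54, 17.8 and 9.11 TPM at E18.5, against 73.9, 75.4 and 88.6 TPM at E15.5 (-2.51 ± 0.34, adjusted p = 1.97e-07). In all 3 genes the highest library of E18.5 was well below the lowest of E15.5. Tle4 had 24.7, 54.5 and 17.96 TPM at E18.5, against 117, 107 and 150 TPM at E15.5 (-2.05 ± 0.27, adjusted p = 1.38e-07). Zfpm2 had 8.83, 13.6 and 8.86 TPM at E18.5, against 40.04, 44.2 and 49.0 TPM at E15.5 (-2.01 ± 0.35, adjusted p = 2.49e-05). The days were again apart, and replicate 2 was the highest library of E18.5 in each of the 10 genes. Tbr1 had 154, 177 and 146 TPM at E18.5, against 489, 665 and 573 TPM at E15.5 (-1.84 ± 0.40, adjusted p = 0.000587). Foxp2, a forkhead factor of layer VI, had 6.01, 8.64 and 3.84 TPM at E18.5, against 21.8, 16.8 and 31.1 TPM at E15.5 (-1.77 ± 0.42, adjusted p = 0.00189). Neither gene overlapped between the days.

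In each of the 7 genes called lower in NBN the step in mean TPM was largest over the first day, as it was for Ldb2. Fezf2 averaged 351 ± 98.4, 172 ± 22.6, 93.2 ± 20.1 and 55.8 ± 28.3 TPM in NBN of E15.5, E16.5, E17.5 and E18.5 (SD, n = 3, 3, 4 and 3). Nfe2l3 averaged 79.3 ± 8.11, 34.6 ± 14.2, 19.7 ± 6.96 and 13.47 ± 4.32 TPM on the same days. Ldb2 averaged 143 ± 21.1, 93.1 ± 5.51, 90.1 ± 19.7 and 95.998 ± 15.2 TPM, and its change of -0.57 ± 0.39 was not called (adjusted p = 0.381, 95% interval -1.34 to 0.19).

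Etv1 rose, with 18.3, 21.6 and 11.5 TPM in NBN of E18.5, against 2.94, 3.49 and 6.05 TPM in NBN of E15.5 (1.82 ± 0.60, adjusted p = 0.0319). The days did not overlap for Etv1, but the call was lost without NBN E15.5 replicate 1 (1.65) or 2 (1.74), without NBN E18.5 replicate 1 (1.75) or 2 (1.64), and with a pseudocount of 5 (1.26). Crym had 75.6, 114 and 85.4 TPM at E18.5, against 26.9, 25.4 and 18.2 TPM at E15.5, days that did not overlap either. Its change of 1.92 ± 0.70 was not called (adjusted p = 0.0556), and was called with a pseudocount of 5 (adjusted p = 0.0112) or when only the NBN libraries of both days entered the fit (adjusted p = 0.000331).

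**Figure D3:**
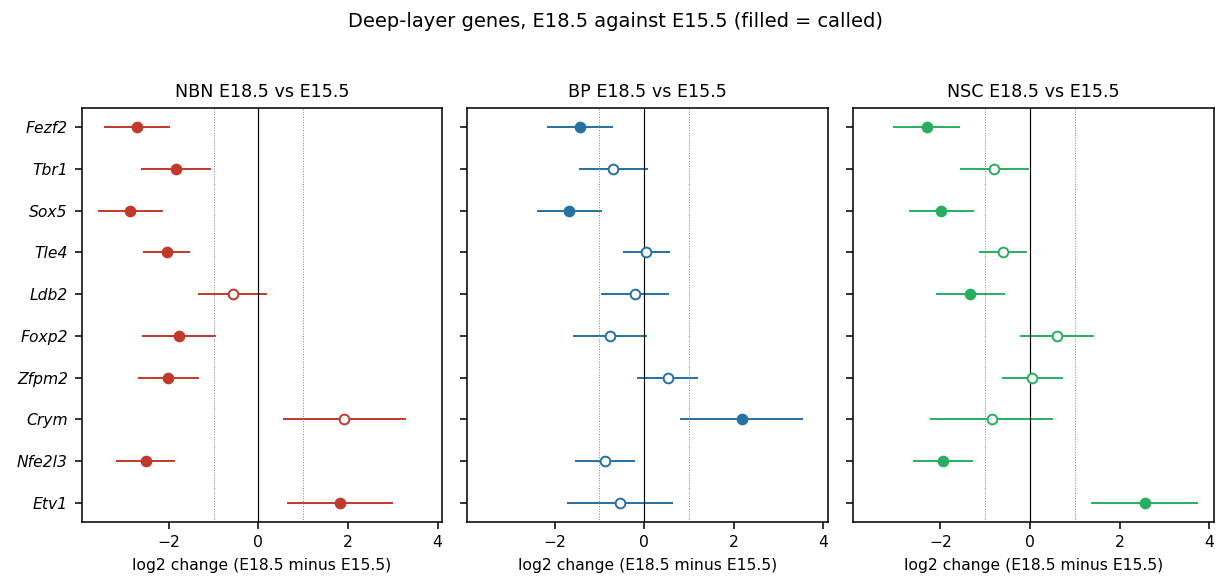
Log2 change of each gene between E18.5 and E15.5 (horizontal axis, later minus earlier day) in NBN, BP and NSC. Bars are 95% intervals, filled circles are called and dotted lines mark a log2 change of 1 in size. In NBN 7 genes lie at -1.77 or below and Ldb2 at -0.57, while in BP the called genes are Fezf2, Sox5 and Crym.

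Of the 19 other deep-layer genes, 2 were called higher and 9 lower in NBN over the same days (median -0.96, against -1.93 over the 10 and 0.05 over all genes). Otx1, a homeobox factor of layer V (-1.68 ± 0.24), Nxph4 (-2.51 ± 0.36) and Hs3st4 (-2.50 ± 0.40) led the lower ones. Dkk3, of the dickkopf family (3.00 ± 0.24), and S100a10 (1.09 ± 0.29) were higher. Of the 17 upper-layer genes 9 were higher and 1 lower (median 1.03), led by Lmo4, a LIM-only protein (2.13 ± 0.18), Rasgrf2 (2.64 ± 0.26) and the homeobox factor Cux1 (1.04 ± 0.13), with Rorb lower (-1.48 ± 0.34). Microglia markers moved with the same contrast, 11 of 11 being higher, with sums of 117 to 159 TPM at E18.5 against 4.54 to 7.69 TPM at E15.5. Basal progenitor markers summed to 221 to 266 TPM at E18.5 and 302 to 486 TPM at E15.5, with 7 of 11 lower. Their part in the changes was not tested.

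RefSeq's GRCm38.p6 promoter table held 6 of the 10 genes, with 8 start sites. The 250 bases before a start are printed for genes that fell together in NBN (Nfe2l3, Sox5 and Tle4) and for the one that rose (Etv1), where the window touches no annotated exon. They read 5′ to 3′ on the gene's strand. Capitals mark 2 motifs, each searched on both strands. The first is CAGATG, an E-box bound by neurogenin-type factors. The second is CAGAC, the SMAD box of the TGF-beta pathway.
Nfe2l3, chr6:51432419-51432668, plus strand: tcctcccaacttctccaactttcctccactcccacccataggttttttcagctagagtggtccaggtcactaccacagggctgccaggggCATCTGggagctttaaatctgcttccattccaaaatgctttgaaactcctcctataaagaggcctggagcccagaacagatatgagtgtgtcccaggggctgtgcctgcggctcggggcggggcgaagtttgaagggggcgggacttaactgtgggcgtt
Sox5, chr6:143947107-143947356, minus strand: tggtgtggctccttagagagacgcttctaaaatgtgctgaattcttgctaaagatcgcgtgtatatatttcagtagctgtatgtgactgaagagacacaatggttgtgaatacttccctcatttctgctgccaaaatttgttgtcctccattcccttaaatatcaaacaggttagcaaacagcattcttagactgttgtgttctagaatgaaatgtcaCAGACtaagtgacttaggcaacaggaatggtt
Tle4, chr19:14598184-14598433, minus strand: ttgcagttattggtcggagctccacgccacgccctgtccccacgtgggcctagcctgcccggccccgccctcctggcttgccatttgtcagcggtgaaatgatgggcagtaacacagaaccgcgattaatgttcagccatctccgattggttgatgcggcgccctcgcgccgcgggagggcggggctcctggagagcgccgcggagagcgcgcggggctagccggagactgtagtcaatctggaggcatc
Etv1, chr12:38779832-38780081, plus strand: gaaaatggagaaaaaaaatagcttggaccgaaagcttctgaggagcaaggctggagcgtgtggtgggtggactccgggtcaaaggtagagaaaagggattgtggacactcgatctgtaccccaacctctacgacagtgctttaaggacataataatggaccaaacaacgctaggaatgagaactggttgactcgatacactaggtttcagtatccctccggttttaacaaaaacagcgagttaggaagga

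The Nfe2l3 window carried 1 E-box and the Sox5 window 1 SMAD box, and the Tle4 and Etv1 windows printed here carried neither motif. Of the 8 windows 2 held the E-box and 2 the SMAD box, since a second Etv1 start had an E-box and a second Tle4 start a SMAD box, in windows that touch exons and are not printed. No matches overlapped. The Sox5 and Etv1 windows printed here belong to starts inside the annotated genes. Sox5 spans 953553 bases of chromosome 6 (chr6:143828425-144781977, minus strand, GENCODE on GRCm38). Etv1 spans 91105 bases of chromosome 12 (chr12:38779380-38870484, plus strand). Over the 32851 promoters of the table, 14.4% held the E-box on either strand, and 42.2% the SMAD box. The T-box motif GGTGTGA was in 3.33% of them on either strand, and in none of the 8 windows of these genes. GC content was 55.2% for Nfe2l3, 39.6% for Sox5, 65.2% for Tle4 and 46.4% for Etv1, beside a median of 52.4% over all promoters. These are matches of letters and no measure of binding.

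In BP the late days brought 1 higher and 2 lower calls among the 10, beside 2.85% of all genes called higher and 0.453% called lower. Sox5 had 36.0, 31.9 and 33.6 TPM in BP of E18.5, against 85.1, 120 and 130 TPM in BP of E15.5 (-1.67 ± 0.37, adjusted p = 0.00126). Fezf2 had 53.2, 67.6 and 46.0 TPM at E18.5, against 145.2, 163 and 143 TPM at E15.5 (-1.43 ± 0.38, adjusted p = 0.00764). Crym rose, with 45.4, 79.6 and 39.5 TPM at E18.5, against 11.6, 6.87 and 15.3 TPM at E15.5 (2.18 ± 0.70, adjusted p = 0.0312). The days did not overlap in any of the 3 genes. The Crym call was lost without BP E15.5 replicate 1 (2.23) or 2 (1.89) and without BP E18.5 replicate 1 (2.28), 2 (1.88) or 3 (2.38), and no call was left when 2 days at each end were averaged (Crym 0.91, Sox5 -0.95 and Fezf2 -0.92). Tle4 averaged 24.5 TPM at E18.5 and 23.8 TPM at E15.5, a change of 0.05 ± 0.27 whose 95% interval ran from -0.48 to 0.58. Of the other deep-layer genes Dkk3 was higher (2.30 ± 0.24) and 2 were lower, Cdh13 (-1.65 ± 0.44) and Bcl11b, the layer V factor also called CTIP2 (-1.93 ± 0.43). None of the 17 upper-layer genes was called in BP (limma), while 6 had an unadjusted p under 0.05, and their median was 0.39 against 0.14 over all genes.

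In NSC 1 of the 10 genes rose and 4 fell, beside 7.67% of all genes called higher and 1.02% called lower. Fezf2 had 42.0, 36.2 and 35.8 TPM in NSC of E18.5, against 178, 211 and 184.9 TPM in NSC of E15.5 (-2.30 ± 0.38, adjusted p = 6.65e-06). Sox5 had 28.4, 38.3 and 39.0 TPM at E18.5, against 146, 130 and 146 TPM at E15.5 (-1.98 ± 0.37, adjusted p = 5.27e-05). Nfe2l3 had 6.21, 1.62 and 1.93 TPM at E18.5, against 8.92, 16.4 and 17.1 TPM at E15.5 (-1.94 ± 0.34, adjusted p = 1.56e-05). The days were apart in these 3 genes. Etv1 rose, with 56.6, 101 and 104 TPM at E18.5, against 18.4, 7.14 and 18.1 TPM at E15.5 (2.56 ± 0.60, adjusted p = 0.00121). Ldb2 had 31.13, 12.3 and 12.47 TPM at E18.5, against 31.09, 47.1 and 58.2 TPM at E15.5 (-1.33 ± 0.39, adjusted p = 0.00919). Its days overlapped narrowly, and the call was lost without NSC E15.5 replicate 3 (-1.13) and without NSC E18.5 replicate 2 (-1.11) or 3 (-1.12).

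The NSC libraries of E18.5 were uneven. Crym had 51.8 TPM in replicate 1 and 1.57 and 1.01 TPM in the others, and its change of -0.85 ± 0.70 (adjusted p = 0.393) was -2.37, and called, without that replicate. Radial glia markers summed to 3494 TPM in replicate 1 and to 7030 and 7097 TPM in the others, against 1240 to 2374 TPM at E15.5. The neuron marker sum was 3074 to 5732 TPM at E18.5 and 5298 to 6304 TPM at E15.5, and the interneuron marker sum was 408 to 593 TPM at E18.5 and 191 to 237 TPM at E15.5. Of these lists 6 of 11 radial glia and 6 of 13 interneuron markers were called higher, as were 7 of 11 cell division markers, and 4 of 10 Cajal-Retzius markers were lower and 1 higher. With the interneuron covariate all 5 calls in NSC were kept, but that level itself differed between the days, so this fit cannot give its part. The part of these lists in the NSC changes was not tested. With E17.5 in place of E18.5, Fezf2 (-1.73) and Sox5 (-2.10) were still called, whereas Etv1 (0.89), Ldb2 (-0.14) and Nfe2l3 (-0.98) were not.

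**Figure D4:**
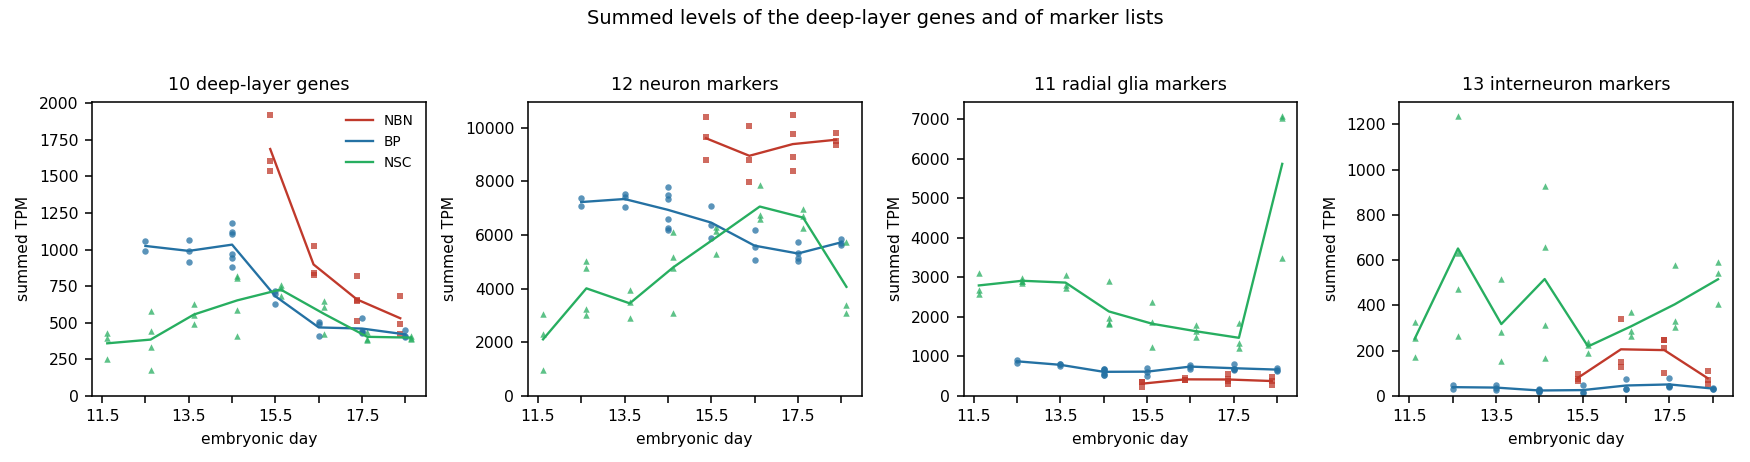
Summed TPM (linear vertical axis) of the 10 deep-layer genes, of 12 neuron markers, of 11 radial glia markers and of 13 interneuron markers by embryonic day. Points are libraries of NBN, BP and NSC, slightly offset on the day axis, and lines join group means. The deep-layer sum in NBN is 419 to 683 TPM at E18.5 and 1536 to 1921 TPM at E15.5, while the neuron marker sum of those groups overlaps.

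The late change itself differed between cell types for some of the genes. Set against the change in BP, the change between E15.5 and E18.5 in NBN was lower for 3 of the 10 and higher for none, beside 1.12% of all genes called lower and 0.899% called higher. These were Zfpm2 (-2.54 ± 0.49, adjusted p = 0.000788), Tle4 (-2.10 ± 0.38, adjusted p = 0.000338) and Nfe2l3 (-1.64 ± 0.48, adjusted p = 0.0471). The Nfe2l3 call was lost when any 1 of 11 of the 12 libraries was left out (all but NBN E18.5 replicate 2), with values from -1.73 to -1.40. Fezf2 (-1.28 ± 0.54, adjusted p = 0.299) and Sox5 (-1.18 ± 0.52, adjusted p = 0.348) fell in both cell types. The difference in the size of their fall was not called in this fit and was called with library weights (Fezf2 -1.11 and Sox5 -1.08). Tbr1 (-1.15) and Etv1 (2.36) were likewise called only in other fits, among them the one with the libraries of the contrast alone, so a missing call does not show that these genes changed alike in NBN and BP. The main fit does not pair BP and NBN libraries of the same number, since no label ties a number to an embryo. A fit with a replicate block within day, added after the data were seen, called Fezf2, Sox5, Tbr1, Etv1 and Foxp2 (-1.02) too. Microglia markers moved with this contrast, 10 of 11 being called higher in NBN, and their part was not tested. Set against NSC, the NBN change was lower for Foxp2 (-2.38 ± 0.59, adjusted p = 0.00604), Zfpm2 (-2.06 ± 0.49, adjusted p = 0.00391) and Tle4 (-1.44 ± 0.38, adjusted p = 0.01), beside 4.81% of all genes called lower and 1.37% called higher. For Tle4 the difference was -1.11 and not called without NBN E18.5 replicate 3, and with E17.5 in place of E18.5 none of the 3 was called (Foxp2 -0.98, Zfpm2 -1.45 and Tle4 -0.59). Crym (2.77 ± 0.99, adjusted p = 0.0596) was 4.28, and called, without NSC E18.5 replicate 1. In this contrast of NBN and NSC, 8 of 11 microglia and 4 of 10 Cajal-Retzius markers were called higher in NBN. Called lower were 5 of 11 basal progenitor, 4 of 11 radial glia and 2 of 11 cell division markers. The part of these lists was not tested.

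Between BP and NSC the late change was called different for Etv1 (-3.10 ± 0.85, adjusted p = 0.023), lower in BP, beside 2.3% of all genes called lower and 0.88% called higher. That call was lost without NSC E15.5 replicate 2 (-2.69), NSC E18.5 replicate 2 (-2.97) or 3 (-2.95), BP E15.5 replicate 1 (-3.02) or 3 (-3.02), or BP E18.5 replicate 3 (-2.94). Without NSC E18.5 replicate 1, Crym (4.55, against 3.04 ± 0.99 with all libraries) and Nfe2l3 (1.53, against 1.07 ± 0.48) were called as well.

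The early days, which NBN do not cover, ran the other way in NSC. Between E12.5 and E15.5, 6 of the 10 genes rose in NSC and 1 fell, beside 5% of all genes called higher and 5.73% called lower. Ldb2 had 31.1, 47.1 and 58.2 TPM in NSC of E15.5, against 7.40, 8.14, 3.99 and 4.98 TPM in NSC of E12.5 (2.703 ± 0.37, adjusted p = 7.4e-08). Sox5 had 146, 130 and 146 TPM at E15.5, against 13.4, 26.7, 51.3 and 26.9 TPM at E12.5 (2.36 ± 0.35, adjusted p = 3.98e-07). Fezf2 had 178, 211 and 184.9 TPM at E15.5, against 9.43, 37.8, 121 and 72.2 TPM at E12.5 (2.14 ± 0.36, adjusted p = 4.23e-06). The days did not overlap in any of these, and the Fezf2 libraries of E12.5 were widely spread. Crym (1.75 ± 0.65, adjusted p = 0.032), Nfe2l3 (1.61 ± 0.32, adjusted p = 5.94e-05) and Tbr1 (1.22 ± 0.37, adjusted p = 0.00732) rose as well. For Crym the days overlapped, with 7.42 to 15.3 TPM at E15.5 and 16.3 TPM in replicate 1 of E12.5. The other libraries of E12.5 had 0.504 to 1.54 TPM of Crym. The Tbr1 rise rests on 1 library: replicate 1 of E12.5 had 25.8 TPM against 117, 234 and 176 TPM in the others, and without it the change was 0.56 and not called. Without the same library Etv1, at -1.27 ± 0.57 with all libraries (adjusted p = 0.0734), was called at -1.93.

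Foxp2 fell in NSC, with 9.70, 10.7 and 16.2 TPM at E15.5, against 25.9, 38.3, 23.4 and 25.7 TPM at E12.5 (-1.16 ± 0.39, adjusted p = 0.0175). The days did not overlap, but the call was lost without NSC E12.5 replicate 2 (-1.01) and without NSC E15.5 replicate 1 (-1.02) or 2 (-1.09). The Crym call was lost without NSC E12.5 replicate 2 (1.34), 3 (1.59) or 4 (1.54) and without NSC E15.5 replicate 2 (1.51) or 3 (1.75). When E13.5 took the place of E12.5, 2 genes were called, Ldb2 at 2.38 and Nfe2l3 at 1.23. Of the other deep-layer genes 8 were higher and none lower in NSC (limma; median 0.64, against 1.42 over the 10 and -0.0060 over all genes), led by Ppp1r1b (DARPP-32), a phosphatase inhibitor (3.61 ± 0.41). Of the upper-layer genes 6 were higher and none lower (median 0.79). Neuron markers summed to 5298 to 6304 TPM in NSC of E15.5 and 3010 to 5043 TPM in NSC of E12.5, radial glia markers to 1240 to 2374 TPM at E15.5 and 2869 to 2983 TPM at E12.5, and interneuron markers to 191 to 237 TPM at E15.5 and 264 to 1238 TPM at E12.5. Cajal-Retzius markers summed to 83.8 to 158 TPM at E15.5 and 274 to 706 TPM at E12.5, with 7 of 10 called lower. Markers of striatal and ventral progenitors summed to 20.6 to 29.1 TPM at E15.5 and 73.3 to 348 TPM at E12.5 (6 of 11 lower), and cell division markers to 330 to 768 TPM at E15.5 and 1069 to 1926 TPM at E12.5 (11 of 11 lower). With the interneuron covariate the Crym (1.70) and Foxp2 (-0.63) calls were lost and the other 5 were kept. That level itself differed between the days, so this fit cannot give its part. The part of these lists in the NSC changes was not tested.

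In BP between E12.5 and E15.5, Crym and Sox5 were called higher and Etv1 was called lower, beside 2.31% of all genes called higher and 4.13% called lower. Etv1 had 17.6, 12.3 and 17.7 TPM in BP of E15.5, against 124.97 and 117 TPM in BP of E12.5 (-2.87 ± 0.68, adjusted p = 0.00168). Crym had 11.6, 6.87 and 15.3 TPM at E15.5, against 0.113 and 0.872 TPM at E12.5 (3.02 ± 0.78, adjusted p = 0.0045). Sox5 had 85.1, 120 and 130 TPM at E15.5, against 32.2 and 45.0 TPM at E12.5 (1.504 ± 0.41, adjusted p = 0.00782). None of these days overlapped, but the Crym and Sox5 calls were lost without BP E12.5 replicate 1 (2.65 and 1.27) and with E13.5 in place of E12.5 (1.12 and 0.30). Tbr1 averaged 315 TPM at E15.5 and 662 TPM at E12.5, and its change of -1.07 ± 0.44 was not called (adjusted p = 0.0943). Foxp2 lay between 16.25 and 20.6 TPM at E15.5 and between 42.7 and 43.5 TPM at E12.5, without overlap. Its change of -1.17 was not called with all libraries, and was called under 5 of the other settings. Tle4, at -0.89 ± 0.30 with all libraries, was called at -1.01 without BP E15.5 replicate 3. Cajal-Retzius markers summed to 133 to 249 TPM in BP of E15.5 and 874 to 907 TPM in BP of E12.5, with 9 of 10 called lower. Their part in the BP changes was not tested.

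The early change of Tbr1 and of Ldb2 differed between BP and NSC, both being lower in BP, beside 2.55% of all genes called lower and 1.09% called higher. For Tbr1 the difference was -2.30 ± 0.58 (adjusted p = 0.0131), and for Ldb2 it was -2.49 ± 0.57 (adjusted p = 0.00647). BP of E12.5 are 2 libraries, and the Tbr1 call was lost without replicate 1 (-2.32) or 2 (-2.27) and the Ldb2 call without replicate 2 (-2.22). Both calls were lost when only the libraries of the contrast entered the fit (adjusted p = 0.214 for Tbr1 and 0.0516 for Ldb2). The Tbr1 difference was -0.96 and not called with E13.5 in place of E12.5, and -1.63 and called without NSC E12.5 replicate 1. Fezf2 (-1.27 ± 0.55, adjusted p = 0.167) was called at -1.77 without NSC E12.5 replicate 3 and at -1.48 with library weights.

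A peak inside the early days was visible in BP, so E14.5 was added as a point of comparison after the values had been seen. Between E12.5 and E14.5 in BP 5 of the 10 genes rose and 2 fell, beside 2.4% of all genes called higher and 2.2% called lower. The risers were Crym (3.67 ± 0.70), Sox5 (2.30 ± 0.37), Ldb2 (1.97 ± 0.39), Nfe2l3 (1.92 ± 0.34) and Fezf2 (1.26 ± 0.38), and those that fell were Etv1 (-3.59 ± 0.60) and Foxp2 (-1.36 ± 0.42). Cajal-Retzius markers were called lower at E14.5 (8 of 10), and their part was not tested. The Fezf2 and Foxp2 calls were lost without BP E12.5 replicate 1 (1.11 and -1.38) or replicate 2 (1.40 and -1.35), and the Foxp2 call also without BP E14.5 replicate 3 (-1.16).

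Between E14.5 and E15.5 in BP 2 of the 10 genes were called lower and none higher, beside 1.29% and 0.177% of all genes. Since E14.5 was picked for a peak in these same values, adjusted p-values and calls against E14.5 do not hold their stated error rate. Ldb2 fell to 5.52, 14.0 and 5.85 TPM at E15.5, against 48.9, 21.1, 26.1, 26.97, 24.6 and 29.7 TPM at E14.5 (-1.75 ± 0.34, adjusted p = 0.000606). Nfe2l3 fell to 8.28, 8.43 and 7.96 TPM at E15.5, against 19.9, 15.7, 19.05, 18.7, 17.9 and 16.7 TPM at E14.5 (-1.04 ± 0.29, adjusted p = 0.029). The days did not overlap for either gene, but the Nfe2l3 call was lost without BP E14.5 replicate 1 (-1.01) and without BP E15.5 replicate 1 (-1.04), 2 (-1.05) or 3 (-1.02).

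The 6 BP libraries of E14.5 were not alike in every gene. Etv1 had 32.0 and 24.3 TPM in replicates 5 and 6 and between 3.74 and 6.95 TPM in the other 4. Crym had 8.98 and 9.48 TPM in replicates 5 and 6 and between 16.2 and 30.4 TPM in the other 4. Nfe2l3 lay between 15.7 and 19.9 TPM in all 6, and the labels give no batch that separates these libraries.

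Etv1 had a course of its own in each cell type. In BP it averaged 121 ± 5.32, 61.9 ± 1.53, 12.8 ± 12.2, 15.9 ± 3.09, 13.7 ± 8.30, 19.8 ± 7.68 and 10.6 ± 2.50 TPM on the days from E12.5 to E18.5 (SD, n = 2, 3, 6, 3, 3, 4 and 3). In NSC it averaged 40.9 ± 15.0 TPM on E11.5 and 47.2 ± 36.0 TPM on E12.5 (SD, n = 3 and 4), between 14.54 and 25.9 TPM on the days from E13.5 to E17.5, and 87.1 ± 26.5 TPM on E18.5 (SD, n = 3). The first BP group and the last NSC group were its high points, and NBN of E15.5, with 4.16 ± 1.66 TPM (SD, n = 3), its low point.

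Over the 19 group means of log2(TPM + 1), some courses were alike. Pearson's r was highest for Fezf2 with Sox5 (0.93), followed by Ldb2 with Nfe2l3 (0.85), Sox5 with Nfe2l3 (0.83) and Tbr1 with Zfpm2 (0.81). Foxp2 with Crym (-0.79) and Nfe2l3 with Etv1 (-0.69) had the lowest values. These r values are descriptions over groups that share cell types and days. Among 11235 genes outside the 10 with a group mean of at least 10 TPM, the nearest course to Ldb2 was that of Nrg3 (0.98), a neuregulin, and the nearest to Nfe2l3 was that of Lnx2 (0.97). Map2k6, a kinase, had the nearest course to both Fezf2 (0.90) and Sox5 (0.91). Crym was nearest to Kptn (0.97), Etv1 to Tle1 (0.93), Foxp2 to Fam222b (0.93), Tbr1 to Kit (0.91), Zfpm2 to Rbm18 (0.88) and Tle4 to 3632451O06Rik (0.87).

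**Figure D5:**
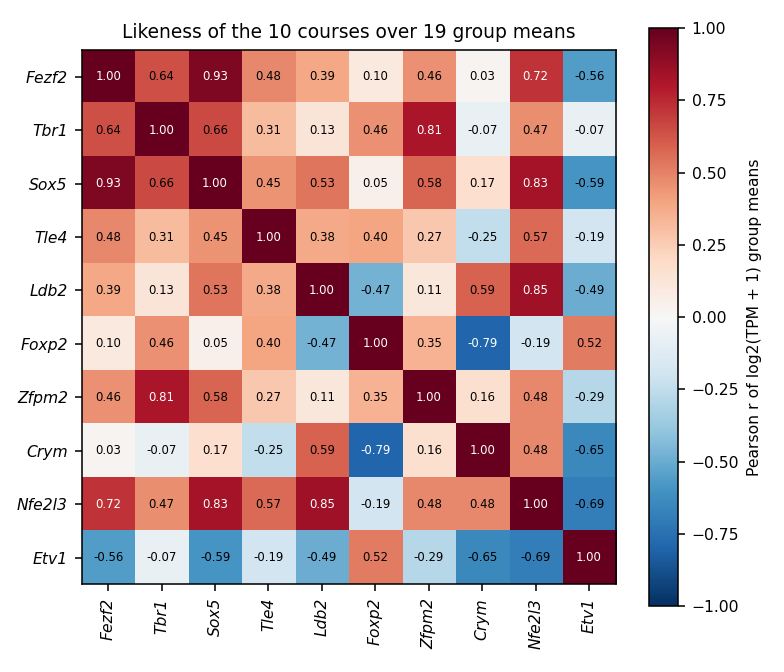
Pearson's r between the 10 genes over the 19 group means of log2(TPM + 1), from -1 to 1. Fezf2 and Sox5 share the highest value off the diagonal (0.93), and Foxp2 and Crym the lowest (-0.79).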

How the data were processed

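RNA of sorted cortical cells was measured in 63 libraries of 19 groups, and the groups and replicate numbers were taken from the sample labels. The authors deposited gene-level TPM values, made with kallisto 0.43.0 on GRCm38.p2 (mm10), per the submitters' processing notes. TPM keeps no depth, so no count test was run. Values were analysed as log2(TPM + 1) with limma 3.58.1 in R 4.3.3, with 1 mean per group, a spread shared by all groups and a variance trend. A gene was tested where 3 libraries or more reached 1 TPM, which 15231 of 23078 genes did. A call is a Benjamini-Hochberg adjusted p under 0.05 over all tested genes with a log2 change of 1 or more in either direction, and 95% intervals are 1.96 SE on each side. There were 14 comparisons, of which 2 (BP at E14.5 against E12.5, and at E15.5 against E14.5) were added after the values were seen. The fit was tested on simulated data. All 10 genes are named. From the other deep-layer and upper-layer lists, up to 3 called genes of smallest adjusted p were taken per direction, and the text names most of these. The genes and lists were chosen with earlier results of these data known. Alternatives were other pseudocounts (0.1 and 5), filters, scalings, days and library weights, a marker covariate, a replicate block and leaving out each library in turn. Promoter sequences are RefSeq's, on GRCm38.p6.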

Additional observations from a re-analysis of the deposited data

Results flagged for a closer look

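Single libraries stood far from their group in 6 of 50 combinations of gene and group with at least 4 libraries, each with a gap that passed Dixon's 95% critical value, and chance passes it in about 5% of groups. In BP of E17.5 replicate 2 was low, with 26.2 TPM of Sox5 (the others 41.1 to 41.8 TPM) and 10.2 TPM of Zfpm2 (the others 19.2 to 20.6 TPM). In BP of E14.5 replicate 2 had 24.4 TPM of Tle4 (the others 33.2 to 36.6 TPM) and replicate 1 had 48.9 TPM of Ldb2 (the others 21.1 to 29.7 TPM). In NSC of E12.5 replicate 2 had 38.3 TPM of Foxp2 (the others 23.4 to 25.9 TPM) and replicate 1 had 16.3 TPM of Crym (the others 0.504 to 1.54 TPM).

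Changes over time differed between cell types in 9 of 40 tests of the difference itself (limma, adjusted over all genes). These tests share groups, so they are not separate from each other. Of all genes, 2.55% were called lower and 1.09% higher in the early difference of BP and NSC. In the late difference of BP and NSC these shares were 2.3% and 0.88%. They were 1.12% and 0.899% in that of NBN and BP, and 4.81% and 1.37% in that of NBN and NSC. The early change was lower in BP than in NSC for Tbr1 (-2.30, adjusted p = 0.0131) and Ldb2 (-2.49, adjusted p = 0.00647). The late change was lower in NBN than in BP for Tle4 (-2.10, adjusted p = 0.000338), Zfpm2 (-2.54, adjusted p = 0.000788) and Nfe2l3 (-1.64, adjusted p = 0.0471). It was lower in NBN than in NSC for Tle4 (-1.44, adjusted p = 0.01), Foxp2 (-2.38, adjusted p = 0.00604) and Zfpm2 (-2.06, adjusted p = 0.00391), and lower in BP than in NSC for Etv1 (-3.10, adjusted p = 0.023). The calls of Tbr1, Ldb2, Nfe2l3, Etv1 and, against NSC, Tle4 could each be lost by leaving out 1 library.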

How the results depend on the processing

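The count of the 10 genes called stayed within 1.5 times for NBN against BP (4), NBN against NSC (5), the late change in NBN (8) and BP of E14.5 against E12.5 (7) under every alternative run, though which genes made up a count could change. For BP of E15.5 against E12.5 (3 called) it was 1 with E13.5 as the start, 5 with library weights or only the libraries compared, and 1 to 3 with a library left out. For BP of E15.5 against E14.5 (2) it was 1 with median-of-ratios or quantile scaling, a pseudocount of 5 or the replicate block, and 1 to 2 with a library left out. For the late change in BP (3) it was 0 with 2 days averaged at each end. For BP against NSC (1) it was 3 with the interneuron covariate (Tbr1, Zfpm2 and Foxp2 higher in BP, and Ldb2 no longer called), 0 with a pseudocount of 5 or quantile scaling, 2 without E18.5, and 0 to 1 with a library left out. For the early change in NSC (7) it was 2 with E13.5 as the start and 4 with only the libraries compared, and for the late change in NSC (5) it was 2 with E17.5 as the end. For the early difference of BP and NSC (2) it was 1 with E13.5, 0 with only the libraries compared, and 0 to 2 with a library left out. For the late difference of BP and NSC (1) it was 0 with E17.5 or 2-day means, 2 with only the libraries compared, 5 with library weights, 4 without 5 NSC libraries chosen after seeing the data (E12.5 replicate 2, E14.5 replicates 1 and 3, E17.5 replicate 1 and E18.5 replicate 1), and 0 to 3 with a library left out. For the late difference of NBN and BP (3) it was 7 with library weights, 5 with only the libraries compared and 8 with a replicate block within day, added after seeing the data, which called Fezf2 (-1.28), Sox5 (-1.18), Tbr1 (-1.15), Foxp2 (-1.02) and Etv1 (2.36) as well. For that of NBN and NSC (3) it was 0 with E17.5, 6 with library weights and 5 without the 5 NSC libraries. The cause of these moves was not tested.

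Of 1770 values of single genes under settings other than a left-out library, 1611 kept direction and side of the threshold, 61 lost a call, 49 gained one and 49 turned in sign, the last called in neither setting. With E17.5 as the end, the late change turned in NSC for Crym (1.89), Foxp2 (-0.26) and Zfpm2 (-0.44), in BP for Etv1 (0.25) and Tle4 (-0.081), between BP and NSC for Crym (-0.18) and Ldb2 (-0.14), and between NBN and NSC for Crym (-0.31), Etv1 (0.95) and Ldb2 (-0.53). With E13.5 as the start, the early change turned in NSC for Tle4 (0.055) and Zfpm2 (-0.35), in BP for Ldb2 (-0.24) and between both for Crym (-0.28). With the interneuron covariate, BP against NSC turned for Etv1 (0.57), Fezf2 (-0.24), Nfe2l3 (0.045), Sox5 (-0.0036) and Tle4 (0.42), NBN against NSC for Foxp2 (0.70), and the late change for Tle4 in BP (-0.0080) and Zfpm2 in NSC (-0.066). With 2-day means, Crym turned in the late difference of NBN and BP (0.23), Etv1 late in BP (0.036), Ldb2 early in BP (-0.020) and Zfpm2 early (-0.18) and late (-0.16) in NSC. Without E18.5, Etv1 turned in BP against NSC (0.35), Foxp2 in NBN against NSC (0.43) and Zfpm2 in NBN against BP (0.39). Library weights turned Etv1 in BP against NSC (0.061), Foxp2 in the early difference of BP and NSC (0.17), Ldb2 (0.027) and Tle4 (-0.045) late in BP, Nfe2l3 in the late difference of NBN and NSC (0.092) and Zfpm2 late in NSC (-0.27), which was -0.097 without the 5 NSC libraries. Median-of-ratios and quantile scaling turned Foxp2 in the early difference of BP and NSC (0.051 and 0.068; 0.0090 with a pseudocount of 0.1), Foxp2 in NBN against NSC (0.018 and 0.097), Tle4 late in BP (-0.11 and -0.12), Zfpm2 in NBN against BP (0.060 and 0.052; 0.022 with a pseudocount of 5) and Zfpm2 late in NSC (-0.091 and -0.34).

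Of 1930 values with a library left out, 56 lost a call, 7 gained one and 36 turned in sign. The ranges of those that turned were -0.51 to 0.031 for Crym in the late difference of NBN and BP, -0.16 to 0.19 for Foxp2 in the early difference of BP and NSC, -0.16 to 0.027 for Foxp2 in NBN against NSC and -0.0066 to 0.32 for Foxp2 in BP of E15.5 against E14.5. They were -0.17 to 0.49 early and -0.42 to 0.18 late for Ldb2 in BP, and -0.083 to 0.17 for Tle4 late in BP. For Zfpm2 they were -0.077 to 0.069 in NBN against BP, -0.019 to 0.39 in BP of E14.5 against E12.5, and -0.23 to 0.23 early and -0.097 to 0.21 late in NSC.

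Replicate numbers were checked as pairs: deviations of libraries from their group means correlated at a mean of 0.0397 between groups for the same number and -0.0149 for other numbers, and 25 of 63 libraries correlated best with their own number. Between BP and NBN of a day 12 of 13 same-numbered pairs passed 0.1, with r from -0.149 to 0.825, and 11 of 13 libraries were best with their own number, a hint from the data and not from the design. Since 1 pair did not pass and no label ties a number to a shared embryo or litter, the numbers were not taken as pairs. With the replicate block, 4 of the 10 genes were called for NBN against BP, 8 for the late change in NBN and 2 for the late difference of NBN and BP. Depth is unknown, so differences of low genes such as Crym on the first days cannot be given a counting error.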
